A study of Mus musculus with 12 samples.

Results

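Mouse ileum after cecal material transfer is compared here with control ileum, using 8 of the series' 12 miRNA libraries. The 4 cecal transfer and 4 control libraries were chosen by their labels, and the miRNAs by a signal above 32 in at least 4 of the 12 libraries, which 226 of 566 mouse probes met. All mice were male NOD/ShiLtJ animals, an inbred strain that develops autoimmune diabetes, sampled at postnatal day 23 (P23). Dams with their litters had been randomised to a restoration group given cecal microbiota, an antibiotic group and a control group. The series title speaks of a rescue from effects of the antibiotic, but no label says library by library whether the recipients had been given the antibiotic, and none names the antibiotic. The 4 antibiotic libraries entered the fit for their share of the spread, and their values stand beside some results. The tissue is labelled ileum, while the design text speaks of intestinal epithelial cells. Defining miRNAs of both epithelium and other layers were present: the smooth muscle and fibroblast miRNA miR-145 gave 13.0% of the mouse signal in cecal transfer and 8.61% in control libraries, and the enterocyte miRNA miR-194 gave 2.80% in cecal transfer and 5.31% in control libraries. Signals of different probes are compared only as signals, since probes can differ in efficiency.

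MicroRNAs are short RNAs that guide Argonaute proteins to messenger RNAs, mostly by pairing of their seed, which is bases 2 to 8 counted from the 5′ end. The matched messages are repressed, and miRNAs with a shared seed can act on overlapping targets. Many miRNA genes lie side by side and are transcribed together, so neighbours often, though not always, change together. In the intestine, miR-192, miR-194 and the miR-200 family mark the epithelium, miR-143 and miR-145 mark smooth muscle and fibroblasts, and miR-126 marks endothelium.

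The sequences shown first are of families in which a pair of relatives differs at a single base outside the seed. Some of these relatives moved in opposite directions, while miR-27a with miR-27b, and miR-29a with miR-29c, both rose. All are RefSeq mature sequences on build GRCm38.p6, with the seed in capitals. Positions in the differences below are counted from 1 at the 5′ end, with the base of the first-named miRNA before the position.
miR-10a: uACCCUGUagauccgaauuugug
miR-10b: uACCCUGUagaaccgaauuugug
miR-27a: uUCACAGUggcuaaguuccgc
miR-27b: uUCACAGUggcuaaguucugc
miR-29a: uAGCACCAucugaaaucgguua
miR-29b: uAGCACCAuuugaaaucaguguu
miR-29c: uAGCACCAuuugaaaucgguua
miR-100: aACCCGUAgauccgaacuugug
miR-99a: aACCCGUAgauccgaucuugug
miR-10a differs from miR-10b by U12A, miR-27a from miR-27b by C19U, miR-29a from miR-29c by C10U, and miR-100 from miR-99a by A16U. How well the probes tell such relatives apart was not tested here.

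The second set holds the other leading changes together with relatives of the same seed.
miR-322: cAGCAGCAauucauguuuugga
miR-16: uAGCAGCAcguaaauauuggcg
miR-15a: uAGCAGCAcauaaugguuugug
miR-130a: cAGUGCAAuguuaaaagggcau
miR-301a: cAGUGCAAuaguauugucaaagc
miR-125a-5p: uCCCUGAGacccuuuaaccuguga
miR-125b-5p: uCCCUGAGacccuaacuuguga
miR-25: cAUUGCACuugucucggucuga
miR-32: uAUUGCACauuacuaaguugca
miR-367: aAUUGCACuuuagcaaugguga
miR-141: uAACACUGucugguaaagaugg
miR-200a: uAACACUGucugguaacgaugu
miR-200b: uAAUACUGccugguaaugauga
miR-200c: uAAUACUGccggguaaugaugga
miR-429: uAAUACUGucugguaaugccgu
miR-194: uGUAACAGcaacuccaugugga
miR-1968: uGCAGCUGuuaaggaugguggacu
miR-141 differs from miR-200a by A17C and G22U, both outside the seed. Of the 226 tested probes, 172 matched a mature sequence in the table, among them 52 of the 68 that passed the test below.

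Between cecal transfer and control ileum, 41 miRNAs were higher and 27 lower, which together are 68 of 226 tested (30.1%). The higher calls were 18.1% and the lower calls 11.9% of all tested. Counts for single lists and families below are to be read beside these shares. The lists were chosen with earlier results of these data known. A call is an adjusted p under 0.05 in a limma fit of log2(signal + 1), adjusted by the Benjamini-Hochberg method over the 226. Signal is the deposited normalised count, and log2 fold changes are cecal transfer minus control, with a standard error (SE) from the fit. The median log2 fold change was 0.59 over the higher calls, -0.39 over the lower calls and 0.05 over all tested. Only 9 of the higher and 4 of the lower calls exceeded a 2-fold change. The 4 cecal transfer libraries lay entirely above the 4 control libraries for 38 of 226 miRNAs (16.8%) and entirely below them for 29 (12.8%). That was so for 34 of the 41 higher calls and 23 of the 27 lower calls.

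**Figure D1:**
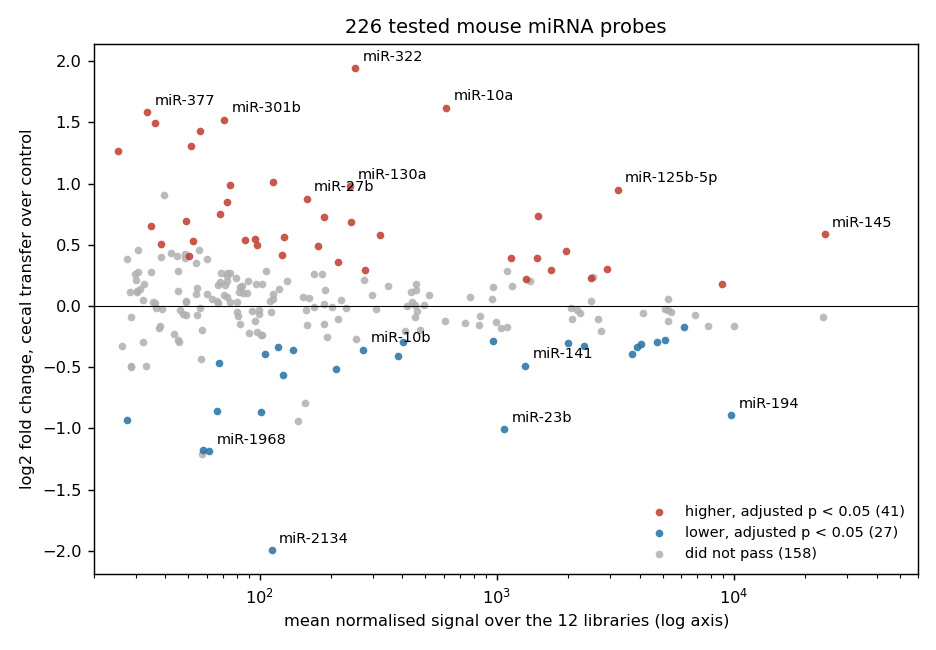
Each point is 1 of the 226 tested miRNAs, with the mean normalised signal over the 12 libraries on a log axis and the log2 fold change of cecal transfer over control on the other. The 41 higher and 27 lower miRNAs are coloured and lie across the whole range of signal, with miR-322 at the top (1.94) and miR-2134 at the bottom (-1.99).

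Changes were found at all levels of signal. Of 45 miRNAs with a mean of at least 1000, 11 were higher and 11 lower. Of 76 with a mean of 100 to 1000, 13 were higher and 11 lower. Of 105 below 100, 17 were higher and 5 lower. Of the tested probes, 12 passed the signal filter only with the help of cecal transfer libraries, and 4 of these are among the higher calls. For miR-377 and miR-367 no library outside cecal transfer exceeded 32, so they entered the test only through the group in which they are high, and their calls are not read as support here. Both are still counted among the higher calls, the calls over 2-fold and the miRNAs whose groups did not overlap. At the edge of the filter, miR-34b-5p and miR-431 were just inside with a fourth-highest signal of 32.5, and miR-208b at 31.7 and miR-489 at 31.5 were just outside.

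The assay counts tagged molecules without sequencing, and the number counted per library differed between the groups. The recovered total was 280114 to 393551 counts in cecal transfer libraries and 169844 to 274302 in control libraries, and these ranges did not overlap (exact two-sided permutation p = 0.0286, the smallest that 4 against 4 can give). The median of the 33 herpesvirus probes, which serve as a measure of background, was 7.36 ± 1.34 in cecal transfer and 10.1 ± 1.78 in control libraries (SD, n = 4 each, exact permutation p = 0.0571). In recovered counts, before scaling, this median was 7 to 13 in cecal transfer and 8 to 12 in control libraries, with overlap. In a fit of all probes, 3 of these 33 (9.09%) differed, each with less signal in cecal transfer. With log2 of the recovered total as a covariate, 23 of the 68 calls held, 20 higher and 3 lower, and no other miRNA passed. The 20 include miR-377 and miR-367. The covariate widened the SE by a median factor of 1.65 over all tested. Of the 45 calls lost with it, 22 had a change at least as large as without it, 22 a smaller one in the same direction, and 1 turned, so a lost call does not by itself mean a smaller change. With every library thinned to the shallowest total, 56 passed, 33 higher and 23 lower. Single draws of this thinning gave 42 to 66 calls. When each library was centred on its median the split became 28 higher and 28 lower, and with quantile normalisation 26 and 27.

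Leaving out each of the 12 libraries in turn left 47 to 67 calls. Of the 62 called miRNAs that the naming rule covers, 41 passed in each of these fits. The 21 others, given here once with the highest adjusted p they reached, were miR-499 (0.0655), miR-367 (0.0786), miR-32 (0.112), miR-532-5p (0.102), miR-142-5p (0.0807), miR-155 (0.0852), miR-122 (0.0933), miR-7a (0.0642), miR-196a (0.153), miR-199a-3p (0.0749), miR-23a (0.0836), miR-29a (0.137) and miR-143 (0.0966) among the higher ones. Among the lower ones they were let-7d (0.107), miR-29b (0.122), miR-192 (0.12), miR-329 (0.0968), miR-10b (0.0556), miR-434-3p (0.102), miR-2141 (0.0966) and miR-2134 (0.0969). None of them changed direction in these fits.

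The largest increase was in miR-322, the mouse counterpart of human miR-424, which is known for restraining the cell cycle. It lies at chrX:53054306-53054327 on the minus strand. Its signal was 465, 353, 495 and 481 in cecal transfer libraries, against 93.8, 74.4, 124 and 200.4 in control libraries. All 4 cecal transfer libraries were above the highest control library. The rise was 3.85-fold (log2 1.94, SE 0.29, adjusted p = 0.000281). miR-322 shares its seed with miR-15a, miR-15b, miR-16, miR-195 and miR-497. The member with the strongest signal, miR-16, had 6343, 7887, 7013 and 7391 in cecal transfer against 8223, 7897, 8594 and 7359 in control libraries (log2 -0.17, adjusted p = 0.112). miR-15a had a mean of 2179 ± 104 against 2277 ± 192 (SD, n = 4 each; log2 -0.06, adjusted p = 0.625, limma). Of the 6 members of this seed family, 1 rose and 5 did not pass, beside 18.1% higher over all tested.

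The second leading increase was in miR-10a, which is encoded in the Hoxb cluster at chr11:96317186-96317208 on the plus strand. In mouse dendritic cells, commensal bacteria are known to lower miR-10a, whose targets include the message for the shared subunit of the cytokines IL-12 and IL-23. The signal was 990.3, 919, 1038 and 1068 in cecal transfer libraries, against 317, 291, 272 and 444 in control libraries. The lowest cecal transfer library had more than the highest control library, and the rise was 3.08-fold (log2 1.62, SE 0.18, adjusted p = 2.45e-05). Its relative miR-10b, encoded in the Hoxd cluster at chr2:74726074-74726096 on the plus strand, moved the other way. It had 244, 244, 232 and 231 in cecal transfer libraries, against 292, 285, 341 and 304 in control libraries, again without overlap. miR-10b fell by 0.36 on the log2 scale (SE 0.10, adjusted p = 0.0186). Its call was lost with the depth covariate (log2 -0.21, adjusted p = 0.506), whereas that of miR-10a was kept (log2 1.51). Among the other tested Hox-cluster miRNAs, miR-196a was slightly higher, with 304 ± 40.5 in cecal transfer and 247 ± 22.4 in control libraries (log2 0.30, adjusted p = 0.0471, limma), and the ranges overlapped. This call was lost in 9 of 11 processing alternatives and in 10 of the 12 fits that left out 1 library. The remaining tested Hox-cluster miRNA, miR-196b, had a larger change the other way but did not pass (log2 -0.94).

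In the family of miR-130 and miR-301, 2 of 4 tested members rose and 2 did not pass, beside 18.1% higher over all tested. miR-301b had 114, 122, 120.2 and 116 in cecal transfer libraries, against 41.4, 35.1, 43.3 and 42.4 in control libraries. Its libraries were tightly grouped on both sides, and the rise was 2.87-fold (log2 1.52, SE 0.14, adjusted p = 6.63e-06). miR-130a had 379.8, 294, 322 and 369 in cecal transfer libraries, against 139, 187, 170.4 and 196 in control libraries (log2 0.98, SE 0.12, adjusted p = 4.38e-05). These groups did not overlap either. The member with the strongest signal, miR-301a, had 487 ± 34.1 in cecal transfer and 433 ± 67.5 in control libraries (log2 0.18, adjusted p = 0.213, limma), and miR-130b had 128 ± 14.8 against 120.4 ± 20.8 (log2 0.10, adjusted p = 0.738). The median log2 fold change of the 4 members was 0.58, beside 0.05 over all tested.

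Members of the miR-99, miR-100 and miR-125 families, some of which share genomic clusters with let-7 genes, rose in part, with 3 of 6 tested higher and none lower. The shares over all tested were 18.1% higher and 11.9% lower. miR-125b-5p, a relative of the worm timing regulator lin-4, had 4439, 3900.2, 4805 and 4744 in cecal transfer libraries, against 2282, 2437, 1979 and 2564 in control libraries. This difference had the lowest adjusted p of the comparison together with miR-301b, at 1.93-fold (log2 0.95, SE 0.09, adjusted p = 6.63e-06). miR-125a-5p, from chr17:17830817-17830840, had 2046, 1721, 1879 and 1864 in cecal transfer libraries, against 1052, 1182, 936 and 1386 in control libraries. It rose by 0.73 on the log2 scale (SE 0.11, adjusted p = 0.000281), again without overlap. miR-100 had 449.6, 333, 435 and 405 in cecal transfer libraries, against 245, 294, 256 and 286 in control libraries (log2 0.58, SE 0.11, adjusted p = 0.00175). Its near-identical relative miR-99a had 223, 264, 188 and 333 in cecal transfer libraries, against 229, 286, 318 and 377 in control libraries, with overlap and no call (log2 -0.27, adjusted p = 0.368). The summed signal of the 6 members was 6509 to 7581 in cecal transfer and 3811 to 4881 in control libraries.

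**Figure D2:**
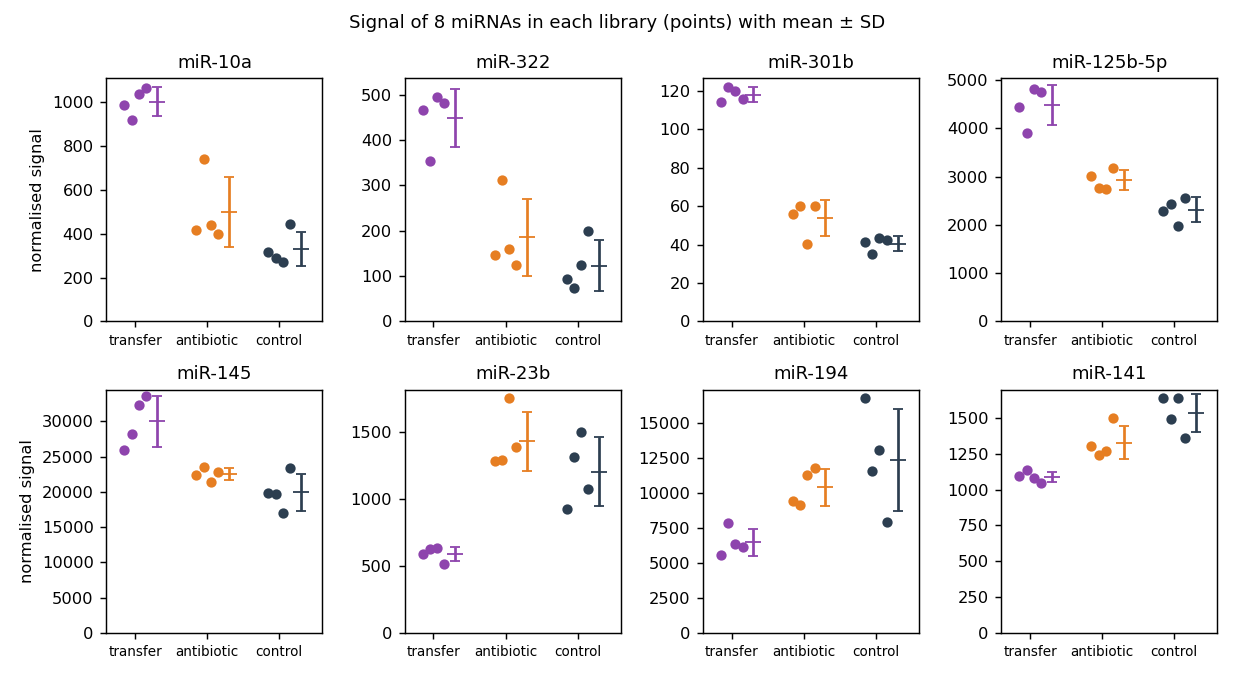
Normalised signal (vertical axes, from 0) of 8 miRNAs in every library, grouped as cecal transfer, antibiotic and control, with points for single libraries and bars for the mean ± SD (n = 4). For all 8, no cecal transfer library overlapped with a control library, and miR-194 came closest, with 7826 as its highest cecal transfer value and 7936 as its lowest control value.

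Of the smooth muscle and fibroblast miRNAs, 3 of 4 tested probes were higher and none lower, beside 18.1% and 11.9% over all tested. miR-145, which holds smooth muscle cells in their contractile state, gave the highest mean signal on the panel. It had 25938, 28178, 32318 and 33664 in cecal transfer libraries, against 19799, 19693, 17011 and 23399.5 in control libraries. All 4 cecal transfer libraries exceeded the control libraries (log2 0.59, SE 0.10, adjusted p = 0.000437). miR-143, made from the same primary transcript as miR-145, had 9722 ± 308 in cecal transfer and 8574 ± 565 in control libraries (log2 0.18, SE 0.06, adjusted p = 0.0315, limma), with overlap. miR-199a-3p, a fibroblast miRNA, had 1944 ± 172 against 1585 ± 128 (log2 0.29, adjusted p = 0.0238). The other arm, miR-199a-5p, had 1248 ± 64.4 against 1117 ± 92.8 and did not pass (log2 0.16, adjusted p = 0.169). The sum of the 4 probes was 38972 to 46937 in cecal transfer and 28167 to 35469.8 in control libraries. In these bulk samples, more cells of a type and more RNA per cell cannot be told apart. The depth covariate ended the call of miR-145 (log2 0.43, adjusted p = 0.0827), quantile normalisation lowered its change to 0.29 with the call kept, and neither miR-143 nor miR-199a-3p passed with libraries centred on their medians. The call of miR-143 was also lost with the depth covariate (log2 0.18, adjusted p = 0.28), in 7 of 11 processing alternatives in all and in 6 of the 12 fits that left out 1 library, whereas miR-199a-3p passed with the depth covariate (log2 0.47, adjusted p = 0.0452).

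The miR-23, miR-27 and miR-24 genes form a pair of clusters, and their members moved in opposite directions. On chromosome 13, miR-23b fell while its neighbours miR-27b and miR-24 rose. miR-23b had 588, 628, 631 and 518 in cecal transfer libraries, against 928, 1318, 1505 and 1074 in control libraries (log2 -1.01, SE 0.14, adjusted p = 0.00017). miR-27b, at chr13:63300760-63300780, had 202, 182, 216 and 231 in cecal transfer libraries, against 99.7, 113, 106 and 133 in control libraries (log2 0.88, SE 0.12, adjusted p = 0.000104). For both, cecal transfer and control libraries were fully separated. miR-24, which both clusters encode, had 254, 217, 263 and 279.6 in cecal transfer libraries, against 137, 121, 189.9 and 168 in control libraries (log2 0.73, SE 0.15, adjusted p = 0.00252). On chromosome 8, miR-27a had 3345 ± 313 in cecal transfer and 2707 ± 129.7 in control libraries (log2 0.30, adjusted p = 0.00582, limma), and miR-23a had 2742 ± 138 against 2338 ± 156 (log2 0.23, adjusted p = 0.0283). Thus 4 of the 5 probes rose and 1 fell, beside 18.1% higher and 11.9% lower over all tested. The depth covariate ended the calls of miR-23b (log2 -0.53, adjusted p = 0.0636), miR-24 (log2 0.83, adjusted p = 0.0591) and miR-23a (log2 0.31, adjusted p = 0.11), and median centring also ended that of miR-23a. Quantile normalisation ended the calls of miR-27a (log2 0.20, adjusted p = 0.139) and miR-23a (log2 0.16, adjusted p = 0.168).

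In the miR-29 family, known for repressing collagen and other matrix messages, 2 of 3 members rose and 1 fell. miR-29c had 1331, 1261, 1426 and 1389 in cecal transfer libraries, against 999, 930.0, 1064 and 1137 in control libraries (log2 0.39, SE 0.08, adjusted p = 0.00175). miR-29a had 1445 ± 70.1 against 1241 ± 81.8 (log2 0.22, adjusted p = 0.0428, limma). miR-29b had 852, 918, 786 and 803 in cecal transfer libraries, against 1139, 967, 1137 and 867 in control libraries, and fell by 0.28 (SE 0.10, adjusted p = 0.0397) with overlapping ranges. With the depth covariate the calls of miR-29a (log2 0.36, adjusted p = 0.0717) and miR-29b (log2 -0.34, adjusted p = 0.222) were lost although both changes were larger. Quantile normalisation lowered the change of miR-29a to 0.05 and left that of miR-29b at -0.27 (adjusted p = 0.132), and the call of miR-29c held under both settings. In the miR-25 family the member with the strongest signal fell and miR-32 rose. miR-25 had 1729 ± 76.9 in cecal transfer and 2135 ± 188 in control libraries (log2 -0.30, adjusted p = 0.00798), and miR-32 had 171 ± 36.1 against 116 ± 26.0 (log2 0.56, adjusted p = 0.035). The third member, miR-367, which comes from the miR-302 cluster of pluripotent cells, had 63.4, 35.8, 38.1 and 36.6 in cecal transfer libraries, against 12.7, 12.8, 20.9 and 24.1 in control libraries. It too passed the signal filter only through cecal transfer libraries, and the fit without the filter gave log2 1.27 (SE 0.36, adjusted p = 0.0251, limma).

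Among the miRNAs that blood cells carry, 3 of 7 leukocyte probes and 2 of 3 erythroid probes were higher and none was lower. Over all tested, 18.1% were higher and 11.9% lower. miR-181a, which tunes the signal strength of the T-cell receptor, had 1742 ± 87.2 in cecal transfer and 1334 ± 130.2 in control libraries (SD, n = 4 each; log2 0.39, adjusted p = 0.00183, limma). miR-155, which activated lymphocytes and macrophages induce, had 151 ± 7.09 against 114 ± 20.4 (log2 0.42, adjusted p = 0.0271). miR-142-5p had 65.5 ± 6.59 against 45.1 ± 6.25 (log2 0.53, adjusted p = 0.0282). All 3 were above every control library, yet miR-142-3p from the same hairpin, with a stronger signal, overlapped, with 986, 1056, 1020.1 and 1087 in cecal transfer libraries against 649, 1522, 799 and 959.8 in control libraries (log2 0.15, adjusted p = 0.661). Lymphocyte-enriched miR-150 had 494 ± 38.4 against 450.1 ± 8.71 and did not pass (log2 0.13, adjusted p = 0.213). Of the erythroid miRNAs, miR-144 had 304 ± 50.2 against 187 ± 12.5 (log2 0.69, adjusted p = 0.000626) and miR-486 had 91.0 ± 16.8 against 53.3 ± 7.63 (log2 0.75, adjusted p = 0.00796). The third erythroid miRNA, miR-451, which shares a transcript with miR-144, had 1271 ± 207 against 1039.6 ± 111 (log2 0.28, adjusted p = 0.11). miR-146b, a brake on Toll-like receptor signalling, had 213 ± 18.2 against 151 ± 12.6 (log2 0.49, adjusted p = 0.00369). Of the 5 inflammation-responsive miRNAs 2 were higher, and miR-21, which inflamed tissue often raises, did not pass at 2331 ± 196 against 2689 ± 304 (log2 -0.20, adjusted p = 0.105). The depth covariate ended the calls of miR-155 (log2 0.60, adjusted p = 0.0827), miR-142-5p (log2 0.81, adjusted p = 0.0685), miR-146b (log2 0.52, adjusted p = 0.0829) and miR-486 (log2 0.68, adjusted p = 0.192), with changes that were larger for the first 3 of these and smaller for miR-486. Quantile normalisation ended the calls of miR-181a (log2 0.14, adjusted p = 0.243), miR-155 (log2 0.34) and miR-142-5p (log2 0.40).

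Several further increases were large in fold and low in signal. miR-377 from the imprinted Dlk1-Dio3 region had 62.6, 51.9, 60.5 and 52.5 in cecal transfer libraries, against 16.1, 14.9, 23.7 and 19.5 in control libraries. Since it passed the signal filter only through cecal transfer libraries, its test is given from the fit of all 566 mouse probes without the filter (log2 1.58, SE 0.25, adjusted p = 0.000209, limma). miR-764-3p had 88.0, 81.6, 109 and 93.8 in cecal transfer libraries, against 29.6, 34.0, 40.5 and 32.1 in control libraries (log2 1.43, SE 0.16, adjusted p = 2.45e-05). miR-369-3p, also of the Dlk1-Dio3 region, had 111 ± 5.75 against 55.5 ± 5.40 (log2 0.99, adjusted p = 0.000437). Control libraries averaged below 32 for 5 of the 41 higher miRNAs, so these folds start close to background. The striated muscle miRNA miR-499 was the least even of them, with 79.3, 32.4, 71.3 and 137 in cecal transfer libraries, against 16.9, 27.6, 29.3 and 44.7 in control libraries (log2 1.31, SE 0.38, adjusted p = 0.0188). The defining striated muscle miRNA miR-1 had 1048, 1180.5, 1016 and 1518 against 1043, 1231, 1359 and 1771 (log2 -0.17, adjusted p = 0.616). Of the 3 tested striated muscle probes, 1 was higher and 2 did not pass. In the miR-30 family, miR-30c alone of 5 passed, with 2409.7 ± 243 in cecal transfer and 1761 ± 140.1 in control libraries (log2 0.45, adjusted p = 0.00101). miR-362-5p had 101 ± 24.6 against 54.4 ± 4.83 (log2 0.85, adjusted p = 0.00202). With it, miR-532-5p of the same X-linked cluster was higher, 2 of 4 tested there, and had 110.0 ± 14.7 against 74.8 ± 4.82 (log2 0.54, adjusted p = 0.035). With the depth covariate, the calls of miR-499 and miR-362-5p were lost without a smaller change (log2 1.61, adjusted p = 0.119, and log2 0.87, adjusted p = 0.0748), while the change of miR-532-5p shrank to 0.30 (adjusted p = 0.619).

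**Figure D3:**
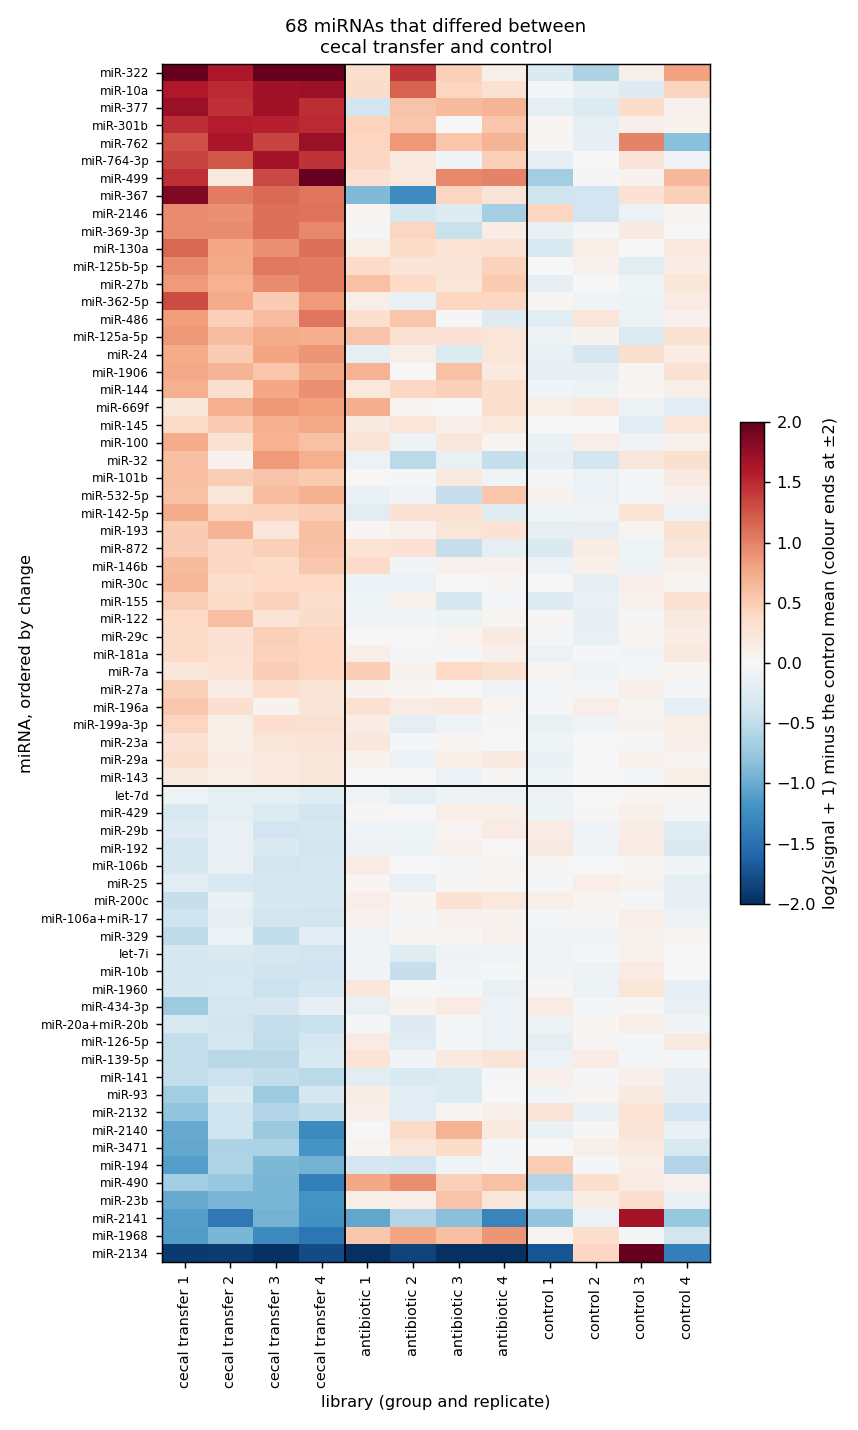
Heat map of the 68 miRNAs that passed, in order of change, with 1 column per library (cecal transfer, antibiotic, control). Colour is log2(signal + 1) minus the control mean and ends at ±2, so the 41 higher miRNAs are red and the 27 lower ones blue in the cecal transfer columns, while control replicate 3 stands out for miR-2134 (849) and miR-2141 (243).

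Of the epithelial miRNAs, both tested enterocyte miRNAs and 3 of 5 members of the miR-200 family fell, while the other 2 did not pass and none of either list was higher. Lower calls made up 11.9% and higher calls 18.1% of all tested. miR-194, which differentiated enterocytes express under control of HNF1 factors, had 5555, 7826, 6371 and 6161 in cecal transfer libraries, against 16796, 11584, 13033 and 7936 in control libraries. The control libraries spread widely, and their lowest was only just above the highest cecal transfer library. The fall was 0.89 on the log2 scale (log2 -0.89, SE 0.18, adjusted p = 0.00183). miR-192, which lies beside a miR-194 gene on chromosome 19, had 3969, 4577, 4119 and 3894 in cecal transfer libraries, against 5744, 4839, 5691 and 4131 in control libraries (log2 -0.29, SE 0.10, adjusted p = 0.0369), with overlap. The summed signal of both was 9524 to 12403 in cecal transfer and 12067 to 22540.5 in control libraries. The call of miR-194 was kept with the depth covariate (log2 -1.18), and that of miR-192 was lost (log2 -0.30, adjusted p = 0.276).

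The miR-200 family keeps cells epithelial by repressing the transcription factors ZEB1 and ZEB2. Its genes lie in a cluster on chromosome 6, with miR-141 and miR-200c, and another on chromosome 4, with miR-200a, miR-200b and miR-429. miR-141, at chr6:124717917-124717938, had 1093, 1135, 1083 and 1047 in cecal transfer libraries, against 1638, 1492, 1636 and 1359 in control libraries (log2 -0.49, SE 0.08, adjusted p = 0.000445). miR-200c had 3027, 3786, 3324 and 3248 in cecal transfer libraries, against 4507, 4314, 4088 and 3721 in control libraries (log2 -0.31, adjusted p = 0.0109). Both miRNAs of the chromosome 6 cluster were thus lower, the ranges of miR-200c overlapping by 1 library. On chromosome 4, miR-429 had 4313, 4706, 4415 and 4123 in cecal transfer libraries, against 4979, 5397, 5704 and 5243 in control libraries (log2 -0.28, SE 0.06, adjusted p = 0.00406). miR-200a had 2170.1 ± 111 against 2230.2 ± 289.6 (log2 -0.03, adjusted p = 0.839, limma) and miR-200b had 5012 ± 324 against 5098 ± 453 (log2 -0.02, adjusted p = 0.882). The calls of miR-200c and miR-429 were lost with the depth covariate (log2 -0.40 and -0.16) and with quantile normalisation (log2 -0.25 and -0.16), and that of miR-141 was kept under both.

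Proliferation-linked miRNAs of the miR-17-92 cluster and its paralogs were lower for 5 of 8 tested probes, with none higher and a median log2 fold change of -0.30. Over all tested, 11.9% were lower and 18.1% higher. The probe for miR-20a and miR-20b had 3149.7 ± 157 in cecal transfer and 4142 ± 307 in control libraries (SD, n = 4 each; log2 -0.39, adjusted p = 0.00101, limma). The probe for miR-106a and miR-17 had 1963 ± 131 against 2464 ± 175 (log2 -0.33, adjusted p = 0.00253). In the paralogous cluster on chromosome 5, which lies in an intron of the replication gene Mcm7, miR-93 (log2 -0.51, adjusted p = 0.00883), miR-25 and miR-106b (log2 -0.29, adjusted p = 0.00934) were all lower. Every cecal transfer library was below every control library for these 5 probes. The other 3 probes did not pass. miR-19b had 569 ± 29.7 against 625 ± 88.4 (log2 -0.12, adjusted p = 0.432), and miR-19a barely changed (log2 -0.02, adjusted p = 0.917). miR-18a leaned the other way, with 70.5 ± 19.2 against 50.0 ± 5.49 (log2 0.46, adjusted p = 0.145). For miR-18a, every cecal transfer library was above every control library. The depth covariate ended all 5 calls, with changes of -0.24 to -0.65.

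Of 9 tested let-7 family members, which promote differentiation and are held back by LIN28 proteins, let-7i and let-7d were lower. The lower share over all tested was 11.9%. let-7i had 3471, 3482, 3393 and 3326 in cecal transfer libraries, against 4104, 4263, 4577 and 4335 in control libraries (log2 -0.34, SE 0.06, adjusted p = 0.000643). let-7d had 5833 ± 276 against 6589 ± 322 (log2 -0.18, adjusted p = 0.035), with overlap. The member with the strongest signal, let-7g, had 11008, 9301, 9063 and 8854 in cecal transfer libraries, against 11006, 10266, 11173 and 10234 in control libraries and did not pass (log2 -0.16, adjusted p = 0.145). The calls of let-7i and let-7d were lost with the depth covariate (log2 -0.23 and -0.05) and with quantile normalisation (log2 -0.18 and -0.03).

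Among the weak probes, miR-1968 fell the most evenly. It had 27, 31.0, 24 and 21.2 in cecal transfer libraries, against 61.7, 75.5, 58.6 and 45.8 in control libraries (log2 -1.19, SE 0.17, adjusted p = 0.000177), and the call was kept with the depth covariate (log2 -1.29). miR-3471 had 62.9 ± 12.2 against 115 ± 16.7 (log2 -0.86, adjusted p = 0.000925), and miR-490 had 13.3 ± 2.82 against 26.7 ± 6.89 (log2 -0.93, adjusted p = 0.0101). The value of miR-490 in cecal transfer libraries came near the 7.36 at which the median herpesvirus probe lay. Of 12 tested probes listed for fragments of tRNA and rRNA, 4 were lower and 1 higher, beside 11.9% and 18.1% over all tested. miR-2134 had the largest fall in fold of all tested, with 34.1, 34.4, 24.9 and 37.2 in cecal transfer libraries, against 38.9, 176, 849 and 50.4 in control libraries (log2 -1.99, SE 0.69, adjusted p = 0.0404). miR-2141 fell less (log2 -1.17, adjusted p = 0.0438). Both calls rest on few libraries: without control replicate 3 the change was -1.10 for miR-2134 (adjusted p = 0.0556) and -0.62 for miR-2141 (adjusted p = 0.0552), and leaving out any of 10 single libraries ended either call. The depth covariate ended the calls of miR-3471 (log2 -0.62), miR-490 (log2 -0.43), miR-2134 (log2 -0.40) and miR-2141 (log2 0.03). miR-720, the strongest probe of this list, had 22548 ± 1019 against 24144 ± 3479 (log2 -0.09, adjusted p = 0.711).

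Endothelial miR-126, from an intron of Egfl7, gave different results for its arms. miR-126-5p had 304, 329.9, 300.8 and 336 in cecal transfer libraries, against 375, 430.5, 415 and 478 in control libraries (log2 -0.41, SE 0.10, adjusted p = 0.00556). The dominant arm miR-126-3p had 5425 ± 127 against 5632 ± 448 and did not pass (log2 -0.05, adjusted p = 0.697). Of other marker lists, the 6 neural probes did not pass, the nearest being miR-218 (adjusted p = 0.068, limma), 1 of 3 secretory probes was higher (miR-7a, log2 0.36, adjusted p = 0.0186), and the liver miRNA miR-122 was higher at a low level, with 61.1 ± 5.96 in cecal transfer and 45.8 ± 4.62 in control libraries (log2 0.41, adjusted p = 0.0289). The call of miR-7a was lost in 5 of 11 processing alternatives. The other secretory probes, miR-375 and miR-7b, did not pass. The summed signal of the 3 secretory probes was 2497 to 3353 in cecal transfer and 2733 to 3161 in control libraries, with overlap. The single tested acinar pancreas probe and all 3 of the sensory-epithelium cluster did not pass. In the Dlk1-Dio3 region, with 18 tested probes, 2 were higher, counting miR-377, and 2 lower, beside 18.1% and 11.9% over all tested. With depth as a covariate none of miR-126-5p (log2 -0.35), miR-7a (log2 0.38), miR-122 (log2 0.33) and the 2 lower Dlk1-Dio3 miRNAs passed, of which miR-329 (log2 -0.42) and miR-434-3p (log2 -0.56) had larger changes than without it.

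A ratio between relatives in the same library cancels the scale of that library, apart from the pseudocount. For this reason the log ratios of pairs with a shared seed or hairpin were tested over the same libraries. Only the 172 probes matched to a mature sequence were paired, so relatives without a matched sequence were left out. Among the 101 tested pairs, which share members and are not independent, 34 ratios differed between cecal transfer and control (33.7%). The miR-10a to miR-10b ratio was 4.23 ± 0.39 in cecal transfer and 1.09 ± 0.28 in control libraries (SD, n = 4 each; log2 change 1.98, SE 0.26, adjusted p = 0.000234, limma). The ratio of miR-16 to miR-322 was 16.4 ± 4.03 against 74.9 ± 29.6 (log2 change -2.11, adjusted p = 0.000418). The miR-141 to miR-200a ratio was 0.503 ± 0.023 against 0.690 ± 0.0342 (log2 change -0.46, adjusted p = 0.000234), and the miR-29b to miR-29c ratio was 0.624 ± 0.0783 against 1.00 ± 0.166 (log2 change -0.67, adjusted p = 0.00114). The miR-27a to miR-27b ratio was 16.2 ± 1.91 against 24.3 ± 3.46 (log2 change -0.58, adjusted p = 0.00411), the miR-100 to miR-99a ratio 1.70 ± 0.549 against 0.916 ± 0.157 (log2 change 0.85, adjusted p = 0.00887), and the miR-130a to miR-301a ratio 0.702 ± 0.0849 against 0.406 ± 0.0846 (log2 change 0.80, adjusted p = 0.00215). Smaller shifts passed too, such as let-7b to let-7i at 1.59 ± 0.0772 against 1.22 ± 0.0457. With the depth covariate 15 of the 34 passed, among them miR-10a to miR-10b, miR-16 to miR-322, miR-141 to miR-200a and miR-29b to miR-29c, but not miR-27a to miR-27b, miR-100 to miR-99a or miR-130a to miR-301a. The pair of miR-25 and miR-367 is in both counts, although miR-367 entered the test only through cecal transfer libraries.

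**Figure D4:**
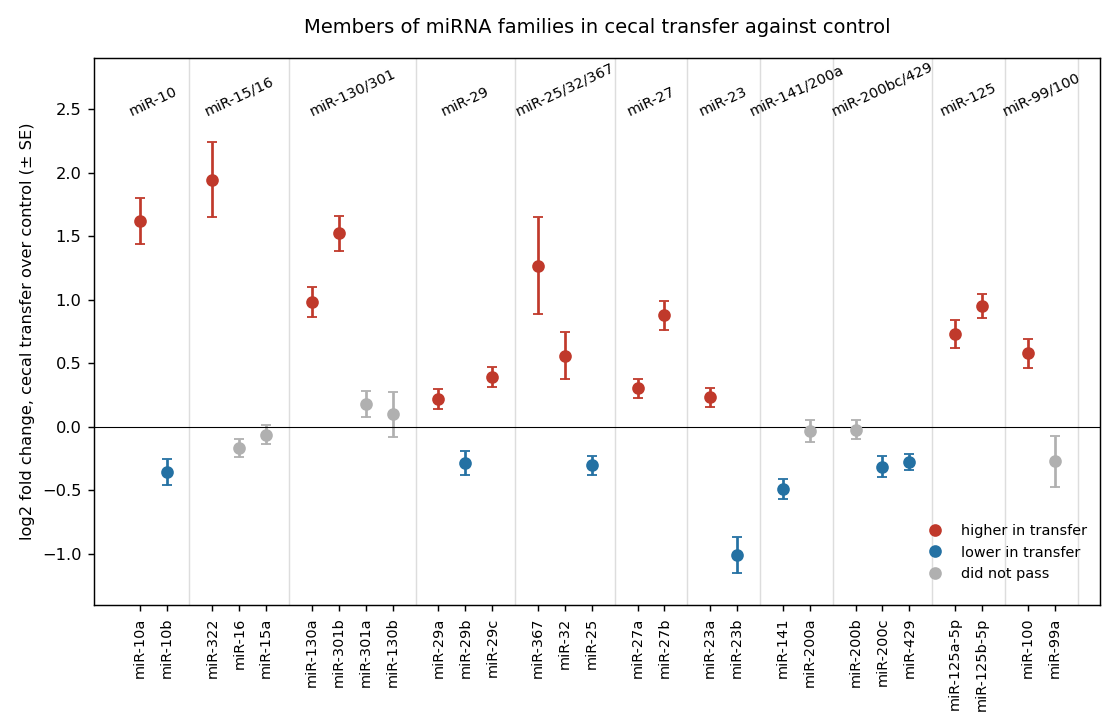
Log2 fold change of cecal transfer over control with its SE for the members of 11 miRNA families, coloured by the test result. Within the miR-10, miR-29, miR-25 and miR-23 families members lie on both sides of 0, and in the families of miR-15 with miR-16 and of miR-130 with miR-301 the rise of miR-322 (1.94), miR-301b (1.52) and miR-130a (0.98) is not shared by the other members drawn.

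Grouped by seed, over the 172 probes matched to a mature sequence, 23 families had at least 2 tested members, and 19 of them held a call. A family of several members can hold a call more easily than a single probe, of which 30.1% were called. In 3 of these 19 the calls went both ways, in 3 every member moved the same way, and in the other 13 some members passed in a single direction and others did not pass. The families with calls both ways were those of miR-10, of miR-29, and of miR-25 with miR-32 and miR-367, the last of which is not needed for this count. With the depth covariate the lower calls of miR-10b, miR-29b and miR-25 were lost (limma adjusted p = 0.506, 0.222 and 0.256). None of the 3 families then held calls both ways. The miR-23 family is outside these counts because miR-23b had no matched sequence, though miR-23a was higher and miR-23b lower. Those with every member moving together were miR-27 and miR-125, both upward, and miR-93 with miR-106b, both downward. Quantile normalisation ended the call of miR-27a, and the depth covariate ended those of miR-93 and miR-106b.

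By position, 31 groups of tested miRNAs had hairpins within 10000 bases of each other on the same strand, or were arms of the same hairpin. Of these groups, 20 held a call. A group can hold a call more easily than a single probe, of which 30.1% were called. In 4 of the 20 groups the calls went both ways. These were miR-29b with miR-29c on chromosome 1, miR-29a with miR-29b on chromosome 6, miR-23b with miR-27b and miR-24 on chromosome 13, and the Dlk1-Dio3 miRNAs on chromosome 12, where miR-329 (log2 -0.33, adjusted p = 0.0309) was lower and miR-369-3p was higher. miR-377 of the same group, which passed the signal filter only through cecal transfer libraries, is not needed for this count. With the depth covariate the lower calls of miR-29b, miR-23b and miR-329 were lost (limma adjusted p = 0.222, 0.0636 and 0.157). None of the 4 groups then held calls both ways. The call of miR-29b was lost in 6 of 11 processing alternatives and in 7 of the 12 fits that left out 1 library. Because miR-29b and miR-24 are each made from a pair of loci, their probes cannot assign the signal to one of them. Neighbours could also differ in their calls without opposing each other, as miR-301b rose beside miR-130b and miR-144 beside miR-451.

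The antibiotic libraries give a further set of values for the same miRNAs, and both comparisons below share the cecal transfer libraries. Over all 226 tested, 19.9% were higher and 12.8% lower in cecal transfer than in antibiotic libraries, 32.7% in all. All cecal transfer libraries lay above the range of the antibiotic libraries for 45 of the 226 tested (19.9%) and below it for 31 (13.7%), among them 28 of the 41 miRNAs higher and 23 of the 27 lower than in control. miR-10a was 402 to 741 in antibiotic libraries (cecal transfer minus antibiotic log2 1.05, adjusted p = 0.000837), miR-322 was 124 to 312 (log2 1.35, adjusted p = 0.004), and miR-301b was 40.4 to 60.1 (log2 1.13, adjusted p = 8.86e-05). miR-23b was 1284 to 1756 in antibiotic libraries (log2 -1.27, adjusted p = 4.22e-05), and miR-1968 was 87.0 to 110.2 (log2 -1.89, adjusted p = 5.66e-06). For these 5 miRNAs cecal transfer stood apart from both other groups. miR-10b, by contrast, was 221 to 298 in antibiotic libraries and overlapped with cecal transfer (log2 -0.20, adjusted p = 0.159).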

How the data were processed

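miRNA levels were measured with the NanoString nCounter miRNA assay, mouse panel version 1.5, on column-purified total RNA, per the labels' protocols. The authors deposited normalised signal for 599 probes, 566 of them for mouse and 33 for herpesvirus miRNAs. Neither a label nor the table names the scaling or the software. The sum of the 100 strongest probes was 220014 to 220199 in every library but control replicate 3, where it was 222565. With this sum nearly fixed, more signal for some strong probes goes with less for others. How far that shaped single changes was not tested. Dividing the signal of a library by a single factor gave whole counts (100% within 0.01 of a count), with totals of 120235 to 393551 per library. The precision of a value is limited by the 4 libraries per group and, for weak probes, by these counts. All libraries carry 1 batch label. No litter is given, so libraries of a group may share one, and the p-values then reflect only the spread among these libraries.

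Signal was transformed to log2(value + 1). Mouse probes above 32 in at least 4 of 12 libraries were fitted with limma 3.58.1 (mean-variance trend) in R 4.3.3 over all 3 groups, with Benjamini-Hochberg adjustment over the 226 tested and a threshold of 0.05. Pair log ratios were fitted likewise. Values are means ± SD (n = 4). Single values per library were compared by exact permutation. The fit was checked on simulated data. Probes were matched by name to RefSeq mature miRNAs (GRCm38.p6), an older name without an arm being read as the arm it then denoted.

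Members, the 25 lists and the pairs were chosen with earlier results of these data known. Named miRNAs are up to 15 calls of largest change per direction, the 10 of highest signal, called list members with up to 4 uncalled ones per list, and members of pairs whose ratio passed. Alternatives were median centring, quantile normalisation, no filter on low values or one at 100, a pseudocount of 10, no trend, 8 libraries only, edgeR 4.0.16 and DESeq2 1.42.0 on recovered counts, log2 depth as a covariate, thinning (20 draws, median) and each library left out. The depth covariate for pairs was added after seeing the data.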

Additional observations from a re-analysis of the deposited data

Results flagged for a closer look

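In 10 of 148 groups of 4 libraries, over 74 named miRNAs, 1 library stood apart from the other 3 by Dixon's criterion. About 1 in 20 groups is marked this way when nothing differs, which here is 7.4, so the number is close to that.

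In cecal transfer libraries, miR-367 was 63.4 in replicate 1 against 35.8 to 38.1 in the others, and miR-142-5p was 75.3 in replicate 1 against 61.4 to 63.1. The probe for miR-106a and miR-17 was 2157 in replicate 2 against 1870.4 to 1916, and miR-369-3p was 119 in replicate 3 against 107 to 109. Among control libraries, replicate 3 was apart for miR-2134 at 849 against 38.9 to 176, for miR-2141 at 243 against 44.0 to 70.1, for miR-142-5p at 54.5 against 41.2 to 42.5, and for miR-27a at 2900.2 against 2624 to 2655. Control replicate 4 was apart for let-7f at 6239.6 against 5122 to 5218 and for miR-106b at 409 against 426 to 428.5.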

How the results depend on the processing

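Between 51 and 70 miRNAs passed under the processing alternatives that kept every library and had no depth covariate, beside the 68 reported (edgeR 70, DESeq2 57). Thinning enters this range by its median, and its 20 single draws gave 42 to 66 calls. Of the 62 named calls, 18 held under each alternative that tested them. These 18 include miR-377 and miR-367, which entered the test only through cecal transfer libraries. Higher calls came to 26 with quantile normalisation, and to 27 to 41 when 1 library was left out. With log2 depth as a covariate 23 passed, 20 higher and 3 lower, and 15 pairs. The recovered totals of the groups do not overlap, so depth and group go together in part and their shares were not separated further.

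Quantile normalisation turned the small, uncalled changes of miR-200b (0.0178), miR-16 (0.0655), miR-126-3p (0.0436), let-7g (0), let-7c (0.13) and let-7f (0.0012). The depth covariate turned miR-2141 (0.0299), miR-200b (0.0485), miR-15a (0.0871), miR-126-3p (0.0302) and let-7c (0.0031). Leaving out 1 library gave -0.10 to 0.0265 for miR-200a, -0.0808 to 0.0208 for miR-200b, -0.001 to 0.17 for miR-130b and -0.0222 to 0.39 for miR-142-3p. The cause of these turns was not tested. Quantile normalisation brought miR-720 (-0.29) and miR-21 (-0.26) past the threshold. Across the 11 processing alternatives miR-21 passed in 3 and miR-16 in 2. Both also passed in 2 of the 12 fits that left out 1 library, and let-7g and miR-301a in 1 each.

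No paired analysis was possible because the labels give no replicate numbers that tie libraries across groups. The lowest signals rest on few counts, 32 being 22.9 to 54.2 counts in cecal transfer and control libraries.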
